A study of Mus musculus with 6 samples.

Results

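Solute carrier (SLC) genes encode membrane proteins that move ions, transmitters, nutrients and metabolites across the plasma membrane or into organelles. They were taken from a deposited table of mouse hippocampus RNA sequencing as all symbols that begin with Slc or Slco followed by a digit. The table holds 69 such genes among 3733. Total RNA of hippocampus was sequenced in 3 treatment groups of 2 libraries each. In PIA+IL-27, postnatal immune activation (PIA) was combined with IL-27, and the design text calls this group LPS with recombinant IL-27. PIA is called LPS in the design text, after bacterial lipopolysaccharide, a stimulus of innate immunity. Control carries no further label. IL-27 is a secreted immune signal that myeloid cells release and that acts through STAT factors. The labels give no strain, sex, age, dose or timing. The labels also name no animal or litter, so all p-values measure only the spread between these libraries, which may be technical.

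Transport by SLC proteins can be passive, can be an exchange of solutes, or can be coupled to ion gradients such as those of sodium, protons or chloride. In brain tissue, SLC1 and SLC6 proteins take transmitters up from outside the cell, SLC17 and SLC18 proteins fill synaptic vesicles, and SLC4 and SLC12 proteins set chloride and pH. The choroid plexus, the meninges and the vessel wall carry their own SLC sets, which move solutes between blood, cerebrospinal fluid and tissue.

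The table is a selection. In the authors' deposited table, every listed gene has a Q value not above 0.05, with a log2 fold change of 1 or more in size, for 1 or more of 3 comparisons of these same libraries. RefSeq holds 389 protein-coding mouse SLC symbols, and those outside the table are not analysed here. Levels per length, in TPM (abundance per transcript, on a scale whose total is the same for each library), averaged over 6 libraries from 0.0483 for Slc17a3 to 66.3 for Slc1a2, with a median of 1.94 over the 69 genes. Of the 69, 13 had a mean of at least 10 TPM and 28 a mean under 1 TPM. The filter on low counts left 54 SLC genes to test. The other 15 never exceeded 18.5 normalized read counts (the authors' read count, rounded up and divided by 1 factor per library), and 11 of these 15 had a library at 0.

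Libraries of the same group differed from each other. The listed genes drew 1593441 and 1386617 reads in PIA+IL-27, 893359 and 641672 reads in PIA, and 648600 and 1533805 reads in Control (replicate 1 first in each pair). Control 2 exceeded Control 1 by over 2-fold at 38 of the 69 SLC genes, against 59.0% of all listed genes. The summed normalized read count of 15 choroid plexus markers was 269 and 1005 in PIA+IL-27, 12161 and 494 in PIA, and 393 and 62579 in Control. Most of the sums in Control 2 and PIA 1 was Ttr, at 58611 and 11302. Several others, such as Folr1 at 99.9 in PIA 1 and 18.5 in PIA 2, kept this order. Sostdc1 was level, at 50.9 in PIA 1 and 50.2 in PIA 2, and Prlr was highest in PIA+IL-27 1, at 19.8. Tmem72 was at 0 in both PIA+IL-27 libraries, Otx2 in PIA+IL-27 1 and Kcne2 in Control 1. Neocortical markers, 4 of 8 listed, summed to 8119 and 1607 in PIA+IL-27, 2256 and 5422 in PIA, and 2621 and 1105 in Control. The dentate granule cell markers Dsp and Prox1, 2 of 6 listed, summed to 189 and 1418 in PIA+IL-27, 699.5 and 103 in PIA, and 645 and 1419 in Control. PIA 2 and PIA+IL-27 1 thus had the highest neocortical and the lowest dentate sums of the 6. In tissue RNA of this kind, fewer cells of a type and less RNA per cell cannot be told apart.

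**Figure D1:**
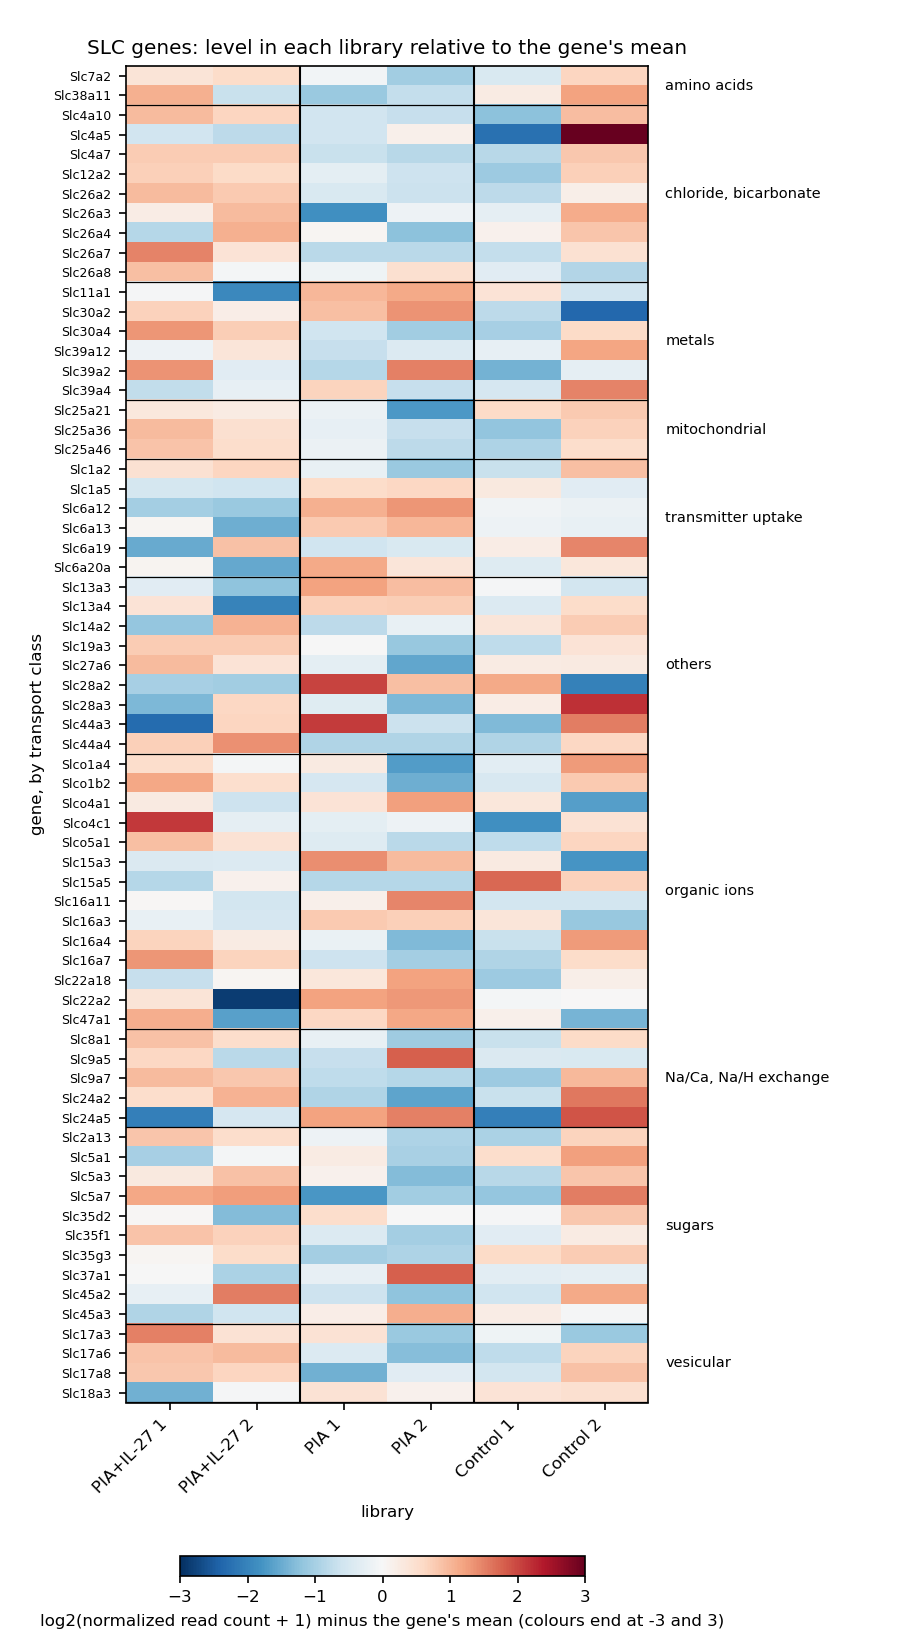
SLC genes, all but 1 of the 69 (rows, grouped by transport class), in 6 libraries (columns), with colour for log2(normalized read count + 1) minus the gene's mean over the libraries. Red is above and blue below the mean, colours end at -3 and 3, and Control 2 is often closer to the PIA+IL-27 libraries than to Control 1.

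None of the 54 tested SLC genes passed an adjusted p of 0.05 in any comparison by edgeR's quasi-likelihood test, with p-values adjusted over all 3216 tested genes. Over those genes, 0.435% were called in PIA+IL-27 against PIA, 0.218% in PIA against Control and 0.311% in PIA+IL-27 against Control. At an unadjusted p under 0.05, there were 6 SLC genes in PIA+IL-27 against PIA (18.7% of all tested genes), 2 in PIA against Control (6.28%) and 1 in PIA+IL-27 against Control (2.86%). DESeq2 called 0 as well, with 13, 4 and 1 SLC genes at an unadjusted p under 0.05 in the same order of comparisons. The smallest adjusted p of an SLC gene was 0.257, 0.278 and 0.123 in that order. The authors' deposited table calls 30 SLC genes higher and 17 lower in PIA+IL-27 than in PIA (61.4% and 18.2% of all listed genes), 15 higher and 20 lower in PIA than in Control (18.0% and 34.4%), and 10 higher and 7 lower in PIA+IL-27 than in Control (13.3% and 8.57%). The test behind those calls is not stated. Every listed gene entered the table through a difference between these same libraries. The p-values and adjusted p given here thus lack their usual meaning, and shares over all listed or tested genes describe selected genes only. Differences between groups given here are therefore levels, with no SLC gene past the threshold.

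Groups of 2 libraries that do not overlap were common. PIA+IL-27 lay wholly above PIA at 33 SLC genes and wholly below it at 19, against 57.1% and 16.5% of all listed genes. PIA lay above Control at 17 and below it at 16, against 17.2% and 16.5%, and PIA+IL-27 lay above Control at 12 and below it at 8, against 23.0% and 7.5%. The median log2 fold change of the tested SLC genes was 0.85 in PIA+IL-27 against PIA, where that of all tested genes was 1.17. In PIA against Control the median was -0.54, beside -0.68 for all tested genes, and in PIA+IL-27 against Control it was 0.26, beside 0.55. All 3 medians turned sign when TMM factors over the listed genes replaced the authors' factors, to -0.41, 0.19 and -0.45, with the median of all genes then at -0.04, -0.00 and -0.02. Both comparisons with PIA share the PIA libraries, so opposite signs in them are not independent.

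Among the plasma membrane transporters of transmitters and amino acids, 4 of the 6 listed SLC1 and SLC6 genes had both PIA libraries above the other 4, against 10.9% of all listed genes. Slc6a12, which encodes the betaine and GABA transporter BGT-1, had 22.9 and 21.4 normalized read counts in PIA+IL-27, 99.9 and 120.0 in PIA, and 44.1 and 41.9 in Control. The 3 groups did not overlap for this gene, and replicates lay close together. Its log2 fold change was -2.31 ± 1.03 (SE, n = 2 per group) in PIA+IL-27 against PIA, with an adjusted p of 0.257, and 1.35 ± 0.99 in PIA against Control, at an adjusted p of 0.617. Slc6a13, its neighbour in the genome, encodes the GABA transporter GAT2, known from the leptomeninges. Slc6a13 had 496 and 172 normalized read counts in PIA+IL-27, 821 and 940.4 in PIA, and 425 and 408 in Control. Both PIA libraries were the highest, while PIA+IL-27 and Control overlapped. The log2 fold change of Slc6a13 in PIA+IL-27 against PIA was -1.40 ± 0.87, with an adjusted p of 0.292.

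RefSeq promoter windows were found for 53 of the 69 SLC genes. An NF-kB motif (3 G, any 2 bases, 3 T and 2 C), searched on both strands in the 250 bases before each start, was found in windows of 3 of these 53 genes and of 1.65% of 27025 RefSeq genes. The 3 are Slc6a12, Slc6a13 and Slc22a2, and each had both PIA libraries above the other 4. Genes with more windows have more places for a match, and of all 32851 windows 1.41% held one. The windows of Slc6a12 and Slc6a13 are shown because these neighbours also share this order of levels. The capitals mark the match. Slc6a12 has 5 windows, of which the first holds a match on the minus strand, 133 to 124 bases before the start, and Slc6a13 has 3, of which the third holds a match on the plus strand, 77 to 68 bases before the start. Both windows lie on the plus strand of GRCm38.p6, at chr6:121342324-121342573 for Slc6a12 and chr6:121303389-121303638 for Slc6a13.
Slc6a12: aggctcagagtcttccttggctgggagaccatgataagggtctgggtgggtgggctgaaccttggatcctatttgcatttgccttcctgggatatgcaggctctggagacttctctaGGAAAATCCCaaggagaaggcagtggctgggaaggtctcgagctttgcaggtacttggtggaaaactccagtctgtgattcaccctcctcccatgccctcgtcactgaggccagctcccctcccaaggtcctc
Slc6a13: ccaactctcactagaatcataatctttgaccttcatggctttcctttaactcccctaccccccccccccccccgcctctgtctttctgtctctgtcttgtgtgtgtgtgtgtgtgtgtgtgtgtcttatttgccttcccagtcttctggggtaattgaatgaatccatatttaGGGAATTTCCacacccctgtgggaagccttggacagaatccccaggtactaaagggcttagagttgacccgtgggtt
In the single window of Slc22a2, on chromosome 17, the match reads GGGCATTTCC. Further motifs were searched on both strands in the same way. The core of the interferon response element, a pair of GAAA with any 2 bases between, was in windows of 3 of the 53 genes and 3.46% of all genes. Of these 3, Slc13a4 had both PIA libraries above the other 4, and Slc26a4 and Slc37a1 did not. TTCNNNGAA, the STAT motif, was in 4 of the 53 and 8.13% of all genes, and GAGGAAGT, of PU.1, in 1 of the 53 and 2.79%. Slc22a18, with the PU.1 match, had both PIA libraries above the other 4, and none of the 4 genes with a STAT match did. A match describes the letters only, and these motifs were chosen with the levels known.

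Other uptake genes split in 2 directions. Slc6a20a, an imino acid transporter, had 211 and 68.9 normalized read counts in PIA+IL-27, 441 and 256 in PIA, and 154 and 254 in Control, so that PIA 2 and Control 2 were almost level. Slc1a5, the neutral amino acid exchanger ASCT2, which carries glutamine, had 93.8 and 90.3 in PIA+IL-27, 199.9 and 211 in PIA, and 167 and 108 in Control. Its groups were separate in every comparison, with a log2 fold change of -1.16 ± 0.93 in PIA+IL-27 against PIA and an adjusted p of 0.34. Slc1a2 encodes GLT-1, the main glutamate transporter of astrocytes, and was the most abundant SLC gene of the table. It had 80.5 and 93.5 TPM in PIA+IL-27, 47.2 and 24.8 in PIA, and 34.2 and 118 in Control. PIA+IL-27 lay above PIA, but the Control libraries spanned both groups. In normalized read counts its log2 fold change in PIA+IL-27 against PIA was 1.15 ± 0.77, with an adjusted p of 0.309, and it turned to -0.0128 with TMM factors. The astrocyte markers Aqp4 and Gfap, 2 of 4 looked for outside the SLC genes, summed to 5852 and 6655 in PIA+IL-27, 18976 and 6493 in PIA, and 14399 and 7497 in Control, and they ran in opposite directions. Aqp4 had 1786 and 1908 in PIA+IL-27, 1031 and 457 in PIA, and 643 and 1975 in Control, and its 6 libraries ranked in the same order as those of Slc1a2. Gfap had 4066 and 4747 in PIA+IL-27, 17945 and 6035 in PIA, and 13757 and 5522 in Control. The part of astrocyte content in the Slc1a2 level was not tested.

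**Figure D2:**
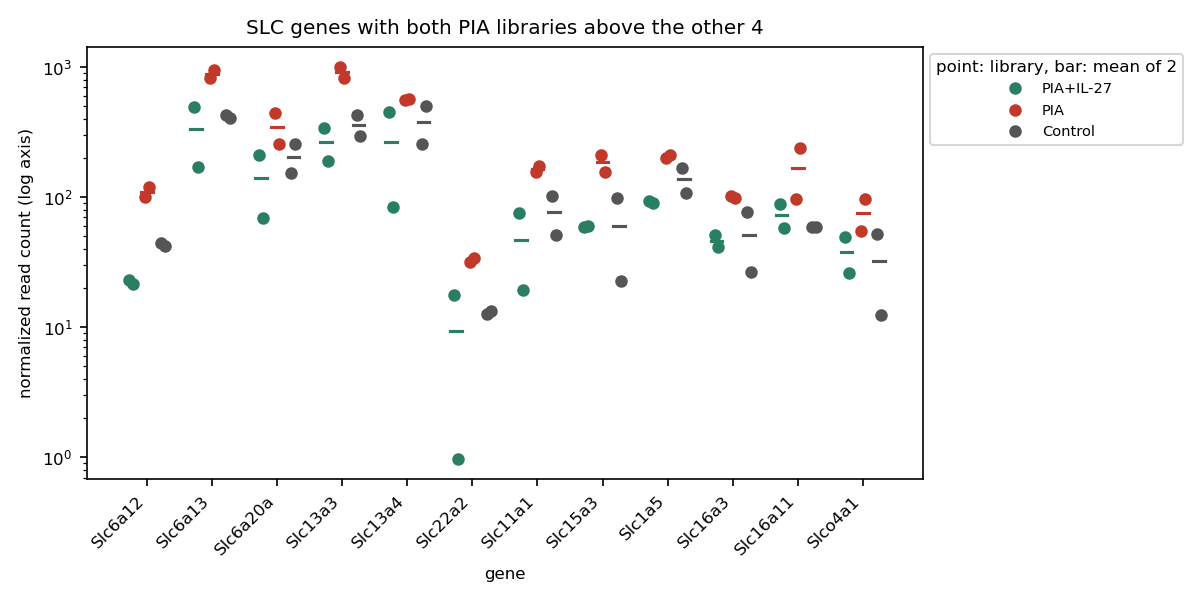
Normalized read counts on a log axis for the 12 tested SLC genes with both PIA libraries above the other 4, with a point per library and a bar at the mean of 2. Slc6a12 shows 3 separate pairs of points, while PIA+IL-27 1 and 2 lie far apart at Slc22a2 (17.7 and 0.971).

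Both PIA libraries were above the other 4 at 14 of the 69 SLC genes, against 10.9% of all listed genes, and below them at 10, against 9.91%. Besides those above, the 14 include Slc13a3, Slc13a4, Slc22a2, Slc11a1, Slc15a3, Slc16a3, Slc16a11, Slco4a1 and 2 genes under the filter, Slc30a2 and Slc22a18. Slc13a3 encodes NaDC3, a sodium-coupled dicarboxylate transporter, and had 341 and 188 normalized read counts in PIA+IL-27, 1007 and 822 in PIA, and 424 and 295 in Control. Its log2 fold change was -1.79 ± 0.88 in PIA+IL-27 against PIA, with an adjusted p of 0.258, and 1.35 ± 0.87 in PIA against Control, at an adjusted p of 0.617. Slc13a4, a sodium sulfate transporter, had 449 and 83.5 in PIA+IL-27, 560.2 and 567 in PIA, and 255 and 499 in Control, where PIA+IL-27 1 and Control 2 came near PIA. Slc22a2, the organic cation transporter OCT2, had 17.7 and 0.971 in PIA+IL-27, 31.7 and 33.8 in PIA, and 12.7 and 13.3 in Control. Slc6a13, Slc13a4 and Slc22a2 are also known from the meninges or choroid plexus. The fibroblast markers Col1a1, Col1a2 and Col3a1, 3 of 6 listed, summed to 4490 and 2797 in PIA+IL-27, 10257 and 6593 in PIA, and 10131 and 6913 in Control. These sums were lowest in PIA+IL-27, as were the means of Slc6a12, Slc6a13, Slc13a3 and Slc22a2. PIA and Control, by contrast, had like fibroblast sums while these 4 genes were higher in PIA. The part of these markers in the levels was not tested.

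Transporters known from immune cells formed a list of 12, of which 6 are in the table, and 5 of the 6 were lower in both PIA+IL-27 libraries than in both PIA libraries, against 16.5% of all listed genes. The list was chosen with these results known. Slc11a1, which encodes NRAMP1, the metal exporter of macrophage phagosomes, had 75.1 and 19.4 normalized read counts in PIA+IL-27, 156 and 172 in PIA, and 103 and 51.4 in Control. Slc15a3, a lysosomal peptide and histidine transporter, had 59.4 and 60.2 in PIA+IL-27, 212 and 157 in PIA, and 97.9 and 22.9 in Control. Slc16a3, the lactate exporter MCT4, had 51.1 and 41.7 in PIA+IL-27, 103 and 98.2 in PIA, and 76.4 and 26.7 in Control. In these 3 genes PIA was the highest group, and Control 1 lay well above Control 2. Log2 fold changes in PIA+IL-27 against PIA were -1.79 ± 0.97 for Slc11a1, with an adjusted p of 0.265, and -1.62 ± 0.96 for Slc15a3, with an adjusted p of 0.286. In PIA against Control they were 1.09 ± 0.95 for Slc11a1 and 1.61 ± 0.96 for Slc15a3, each with an adjusted p of 0.617. Slc28a2, a concentrative nucleoside transporter under the filter, had 1.04 and 0.971 in PIA+IL-27, 15.4 and 6.55 in PIA, and 7.84 and 0 in Control, where 0 allows up to 2.86. Slc7a2, the cationic amino acid transporter CAT2, ran the other way, with 274 and 306 in PIA+IL-27, 197 and 100.4 in PIA, and 153 and 326 in Control. The neutrophil and monocyte markers, 5 of 7 listed, summed to 105 and 64.1 in PIA+IL-27, 1397 and 93.8 in PIA, and 405 and 31.4 in Control, with Ly6g at 0 in PIA 2 and both PIA+IL-27 libraries. The microglial marker P2ry12, 1 of 6 listed, had 258 and 184 in PIA+IL-27, 9.61 and 56.7 in PIA, and 14.7 and 232 in Control. The part of these cell types in the levels was not tested.

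Vesicular transporters for glutamate were higher in both PIA+IL-27 libraries than in both PIA libraries. Slc17a6, encoding VGLUT2, had 791 and 855 normalized read counts in PIA+IL-27, 329 and 180.0 in PIA, and 261 and 694 in Control. PIA+IL-27 was above both other groups, with a log2 fold change of 1.69 ± 0.88 against PIA and an adjusted p of 0.264. Slc17a8, encoding VGLUT3, had 49.0 and 43.7 in PIA+IL-27, 9.61 and 21.8 in PIA, and 18.6 and 51.4 in Control. Of the cholinergic pair, Slc18a3, the vesicular acetylcholine transporter, had 6.26 and 18.4 in PIA+IL-27, 25.9 and 20.7 in PIA, and 25.5 and 26.7 in Control. Slc5a7, the choline uptake transporter of the same neurons, had 13.6 and 14.6 in PIA+IL-27, 0.961 and 2.18 in PIA, and 1.96 and 18.1 in Control. These cholinergic genes thus ran in opposite directions between PIA+IL-27 and PIA. The log2 fold change of Slc5a7 in PIA+IL-27 against PIA was 3.08 ± 1.43, with an adjusted p of 0.258, and rests on 0.961 and 2.18 normalized read counts in the PIA libraries.

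Of 9 chloride and bicarbonate transporters, 6 lay wholly above PIA in PIA+IL-27 (66.7%, against 57.1% of all listed genes) and 1 wholly below it (11.1%, against 16.5%), which is close to the share over all genes. Slc12a2, encoding the sodium, potassium and chloride cotransporter NKCC1, had 643 and 582 normalized read counts in PIA+IL-27, 316 and 254 in PIA, and 181 and 635 in Control. Slc4a10, a sodium-driven bicarbonate transporter, had 1323 and 1069 in PIA+IL-27, 456 and 421 in PIA, and 289 and 1294 in Control. Slc4a7, the sodium bicarbonate cotransporter NBCn1, had 687 and 678 in PIA+IL-27, 254 and 224 in PIA, and 226 and 705 in Control. In all 3 genes Control 2 was level with PIA+IL-27 and Control 1 with PIA or below it. The log2 fold change of Slc12a2 in PIA+IL-27 against PIA, 1.10 ± 0.87 with an adjusted p of 0.338, turned to -0.11 with TMM factors. Slc26a8, an anion transporter of the SLC26 family, had 141 and 70.9 in PIA+IL-27, 68.2 and 105 in PIA, and 58.8 and 40.0 in Control, with both other groups above Control.

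Slc4a5 encodes NBCe2, the bicarbonate cotransporter of the choroid plexus, and was set by 1 library. It had 11.5 and 9.71 normalized read counts in PIA+IL-27, 11.5 and 19.6 in PIA, and 2.94 and 295 in Control. Its log2 fold change was -3.80 ± 1.10 in PIA+IL-27 against Control, with an adjusted p of 0.123, and -3.25 ± 1.07 in PIA against Control, at an adjusted p of 0.278. Without Control 2 these values were 1.81 and 2.35. Control 2 also had the highest choroid plexus sum, 62579, and PIA 1 the next, 12161. Slc4a5 did not follow that sum within PIA, being lower in PIA 1 (11.5) than in PIA 2 (19.6), where the sum was 494. The part of choroid plexus content in the Slc4a5 level was not tested.

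Of 5 sodium, calcium and proton exchangers, 3 lay wholly above PIA in PIA+IL-27, near the 57.1% of all listed genes that did. Slc24a2, the potassium-dependent sodium and calcium exchanger NCKX2 of neurons, had 397 and 569.9 normalized read counts in PIA+IL-27, 147 and 91.6 in PIA, and 173 and 829 in Control. Both PIA libraries were below the other 4, with a log2 fold change of 2.02 ± 0.89 in PIA+IL-27 against PIA (adjusted p of 0.257) and -2.07 ± 0.90 in PIA against Control (adjusted p of 0.617). Slc8a1, the sodium and calcium exchanger NCX1, had 3403 and 2669 in PIA+IL-27, 1567 and 873 in PIA, and 1158 and 2725 in Control. Slc9a7, the sodium and proton exchanger NHE7 of the Golgi, had 984 and 882 in PIA+IL-27, 296 and 277 in PIA, and 238 and 991 in Control. Slc8a1 and Slc9a7 again placed Control 2 beside PIA+IL-27 and Control 1 beside PIA. Slc9a5, the neuronal exchanger NHE5, had 542 and 202 in PIA+IL-27, 216 and 1214 in PIA, and 259 and 254 in Control. Its log2 fold change of 1.48 ± 0.87 in PIA against Control, at an adjusted p of 0.617, was -0.25 without PIA 2. Slc24a5, a melanosomal exchanger in pigment cells, had 0 and 1.94 in PIA+IL-27, 8.65 and 10.9 in PIA, and 0 and 14.3 in Control, so its values are near the floor of 3 counts.

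**Figure D3:**
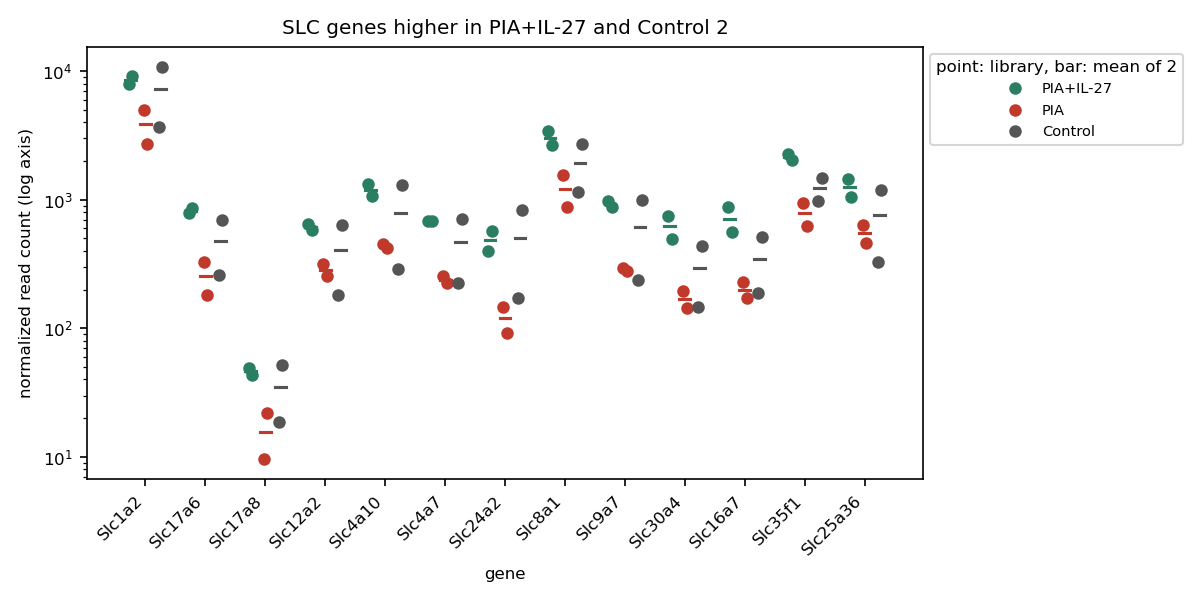
Normalized read counts on a log axis for 13 SLC genes, with a point per library and a bar at the mean of 2. PIA+IL-27 is above PIA at each gene, and the Control libraries lie far apart, with Slc24a2 at 173 and 829.

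Metal, monocarboxylate, sugar and mitochondrial carriers held further genes of the same order. Slc30a4, the zinc transporter ZnT4, had 747 and 495 normalized read counts in PIA+IL-27, 196 and 143 in PIA, and 147 and 439 in Control. Slc16a7, the monocarboxylate transporter MCT2 of neurons, had 873 and 556 in PIA+IL-27, 228 and 171 in PIA, and 187 and 510.4 in Control. For both genes PIA+IL-27 was above both other groups. Against PIA, the log2 fold change was 1.87 ± 0.89 for Slc30a4 and 1.84 ± 0.89 for Slc16a7, each with an adjusted p of 0.258. Slc35f1, of the nucleotide sugar transporter family, had 2259.6 and 2021 in PIA+IL-27, 945 and 619.7 in PIA, and 985 and 1477 in Control. Slc2a13, a proton-coupled myo-inositol transporter, had 661 and 531 in PIA+IL-27, 333 and 194 in PIA, and 192 and 585 in Control. Slc25a36, a mitochondrial carrier of pyrimidine nucleotides, had 1450.4 and 1049 in PIA+IL-27, 636 and 464 in PIA, and 327 and 1201 in Control. Only Slc35f1 among these 3 had both PIA+IL-27 libraries above both Control libraries. Slc39a12, the zinc importer ZIP12, had 178 and 255 in PIA+IL-27, 122 and 148 in PIA, and 167 and 449 in Control, with both PIA libraries lowest.

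A few SLC genes were high in PIA 2 and PIA+IL-27 1, which also had the highest neocortical sums. These 2 libraries were above the other 4 at 6 of the 69 genes, against 6.86% of all listed genes, and below them at 4, against 6.35%. Slc37a1, a glucose 6-phosphate and phosphate exchanger, had 141 and 73.8 normalized read counts in PIA+IL-27, 120.1 and 498 in PIA, and 115 and 117 in Control. Slc47a1, the organic cation extruder MATE1, had 88.6 and 12.6 in PIA+IL-27, 64.4 and 93.8 in PIA, and 46.0 and 15.2 in Control. Slc16a11, of the monocarboxylate transporter family, is not among the 6 genes, since both PIA libraries were its highest, and had 88.6 and 58.3 in PIA+IL-27, 96.1 and 239 in PIA, and 58.8 and 59.0 in Control. PIA 2 was the highest library for all 3, as for Slc9a5. In PIA against Control, the log2 fold change was 1.51 ± 0.96 for Slc16a11, 1.41 ± 0.92 for Slc37a1 and 1.37 ± 1.01 for Slc47a1, with adjusted p of 0.617 each.

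Further SLC genes with moderate counts held both orders. Slc26a7, an anion transporter, had 88.6 and 41.7 normalized read counts in PIA+IL-27, 17.3 and 17.5 in PIA, and 18.6 and 42.8 in Control, and Slc26a2, the sulfate transporter, had 44.8 and 39.8 in PIA+IL-27, 16.3 and 14.2 in PIA, and 12.7 and 25.7 in Control. Slc26a2 lay above both other groups in PIA+IL-27, with a log2 fold change of 1.13 ± 1.09 against Control and an adjusted p of 0.835. Slc5a3, a sodium-coupled myo-inositol transporter, had 258 and 387 in PIA+IL-27, 229.6 and 85.1 in PIA, and 119 and 374 in Control. Slc25a46, a protein of the outer mitochondrial membrane, had 961 and 774 in PIA+IL-27, 474 and 309 in PIA, and 279 and 767 in Control. For Slc5a3 and Slc25a46, PIA+IL-27 lay above PIA, and Control 1 lay within or below the PIA values. Slc19a3, a thiamine transporter, had 27.1 and 27.2 in PIA+IL-27, 15.4 and 6.55 in PIA, and 8.82 and 20.9 in Control. Slco1a4, an organic anion transporter of the blood-brain barrier, had 114 and 75.7 in PIA+IL-27, 95.1 and 24.0 in PIA, and 63.7 and 193 in Control. All 3 groups overlapped for Slco1a4. The endothelial markers Abcb1a and Ly6c1, 2 of 10 listed, summed to 314 and 365 in PIA+IL-27, 591 and 227 in PIA, and 345 and 347 in Control. Abcb1a had 222 and 137 in PIA+IL-27, 108 and 42.5 in PIA, and 64.6 and 173 in Control, and Ly6c1 had 91.8 and 228 in PIA+IL-27, 483 and 184 in PIA, and 280.1 and 173 in Control. As for Slco1a4, Abcb1a was higher in Control 2 than in Control 1 and in PIA 1 than in PIA 2. Ly6c1 shared the order of Slco1a4 in PIA only, and ran the other way in Control and in PIA+IL-27. The part of vessel content in the Slco1a4 level was not tested. Slc14a2, a urea transporter, had 26.1 and 122 in PIA+IL-27, 33.6 and 50.2 in PIA, and 76.4 and 101 in Control, and Slc26a4, the anion exchanger pendrin, had 22.9 and 90.3 in PIA+IL-27, 44.2 and 17.5 in PIA, and 47.0 and 77.1 in Control. PIA lay below Control for both, with a log2 fold change of -1.08 ± 0.97 for Slc14a2, while PIA+IL-27 overlapped both groups. Slc39a2, a zinc importer, had 52.1 and 15.5 in PIA+IL-27, 10.6 and 58.9 in PIA, and 6.86 and 16.2 in Control, high in PIA+IL-27 1 and PIA 2 alone.

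Most of the remaining SLC genes had low counts. Slc44a3, of the choline transporter-like family, had 0 and 6.80 normalized read counts in PIA+IL-27, 20.2 and 2.18 in PIA, and 0.979 and 13.3 in Control, with the higher library of PIA and of Control being the one with the higher choroid plexus sum. Slc45a2, a melanosomal transporter in pigment cells, had 5.21 and 20.4 in PIA+IL-27, 3.84 and 2.18 in PIA, and 3.92 and 15.2 in Control. Slc38a11, of the amino acid transporter family SLC38, had 25.03 and 6.80 in PIA+IL-27, 4.80 and 6.55 in PIA, and 13.7 and 27.6 in Control. In Slc45a2 and Slc38a11 PIA lay wholly below Control, with log2 fold changes of -1.62 ± 1.33 for Slc45a2 and -1.85 ± 1.22 for Slc38a11, neither past the threshold. For Slc45a2, PIA 1 (3.84) and Control 1 (3.92) differed only by their library factors (1.04 and 1.02), so their read counts were tied. Under the filter, Slc30a2, the zinc transporter ZnT2, had 7.30 and 4.85 in PIA+IL-27, 8.65 and 12.001 in PIA, and 1.96 and 0 in Control, so both treated groups lay above Control. A 0 allows up to 2.86 to 3.27 normalized read counts, depending on the library. Slco5a1, of the organic anion transporter family, had 431 and 313 in PIA+IL-27, 175 and 129.8 in PIA, and 134 and 358 in Control, and followed the order of the abundant genes above. Slc16a4, Slc27a6, Slc35d2, Slc39a4 and Slc45a3 were tested and none passed the threshold. Besides Slc28a2, Slc30a2 and Slc22a18, the genes under the filter included Slc26a3, Slc25a21, Slc6a19, Slc28a3, Slc44a4, Slco1b2, Slco4c1, Slc15a5, Slc5a1, Slc35g3 and Slc17a3.

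One division of the libraries ran through many listed genes, SLC genes among them. Control 2 and both PIA+IL-27 libraries were all above Control 1 and both PIA libraries at 29 of the 69 SLC genes (42.0%). That share was below the 52.4% of all listed genes. The reverse order held at 9 SLC genes (13.0%), against 9.54% of all listed genes. The 9 are Slc11a1, Slc15a3, Slc16a3, Slc28a2, Slc1a5, Slc6a12, Slc13a3, Slco4a1 and Slc45a3. Transcripts of these 9 genes had a median GC content of 56.1%, and those of the 29 genes had one of 43.3%, beside 46.4% over all 69. Over all listed genes of those orders the medians were 53.6% and 42.2%. Across the 54 tested SLC genes, Spearman's rho between GC content and the log2 fold change in PIA+IL-27 against PIA was -0.67, and it was -0.64 across 3081 genes. Genes share the libraries, so these are descriptions.

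**Figure D4:**
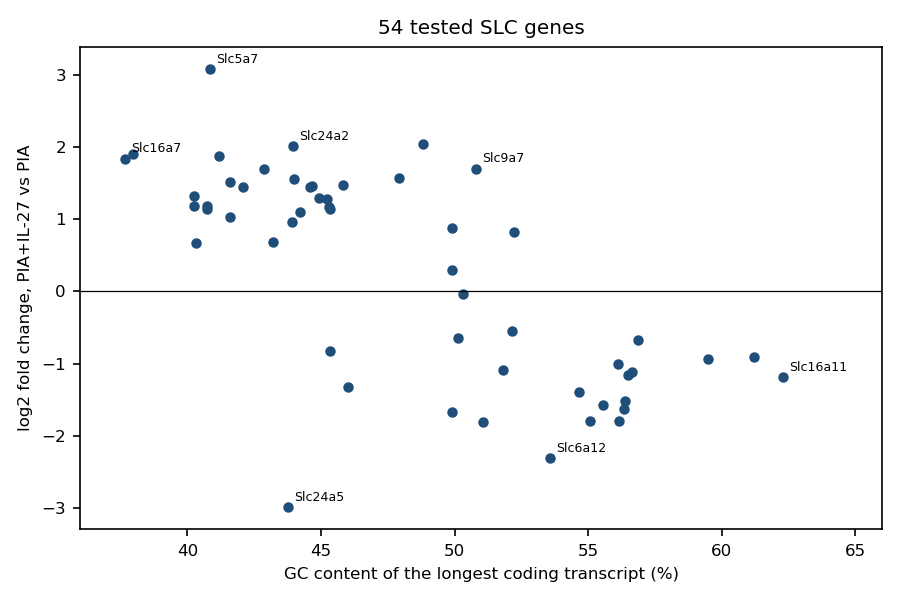
Log2 fold change in PIA+IL-27 against PIA (vertical axis) by GC content of the longest coding transcript in percent (horizontal axis), with a point per tested SLC gene. Points of low GC content lie mostly above 0 and those of high GC content below it, with Spearman's rho at -0.67. Slc24a5 and Slc9a7 lie off that order, and the GC content of Slc9a7 is that of a transcript of 2512 bases.

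After a trend on GC content was removed from each library, a step chosen after the data were seen, the SLC genes separated. Of those higher in PIA, Slc15a3 had a log2 fold change of -0.06, Slc11a1 of -0.27, Slc13a3 of -0.23 and Slc6a12 of -0.93 in PIA+IL-27 against PIA. Slc6a13 turned to 0.11 and Slc1a5 to 0.46, while Slc6a20a stayed at -1.50 ± 0.70, with an adjusted p of 0.303. The authors' counts of Slc6a20a were not whole in 50% of libraries, and only 3 of the 69 SLC genes had any such value. Part of the reads of Slc6a20a may thus be shared with another gene. In PIA against Control, Slc15a3 was at 1.07, Slc6a20a at 0.98, Slc6a12 at 0.61 and Slc13a3 at 0.51. Among genes higher in PIA+IL-27 than in PIA, Slc5a7 was at 2.30, Slc24a2 at 1.54, Slc17a6 and Slc30a4 at 1.09 each, Slc1a2 at 0.86 and Slc16a7 at 0.75. Slc9a7 moved to 2.53 ± 0.69 and passed the threshold there, with an adjusted p of 0.0298. Its GC content, 50.8%, is that of a transcript of 2512 bases. Slc4a7, with 8132 bases, had a like level in Control 1, at 226 normalized read counts and 3.14 TPM. Slc9a7 had 238 and 2.89 there, so the authors may have counted a longer transcript of other GC content. Whether the Slc9a7 call rests on this was not tested. Slc4a5 passed the threshold in PIA against Control at -4.21 ± 1.03, with an adjusted p of 0.0177, a value that rests on Control 2. The part of GC content and of the marker sums in these levels was not tested.

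**Figure D5:**
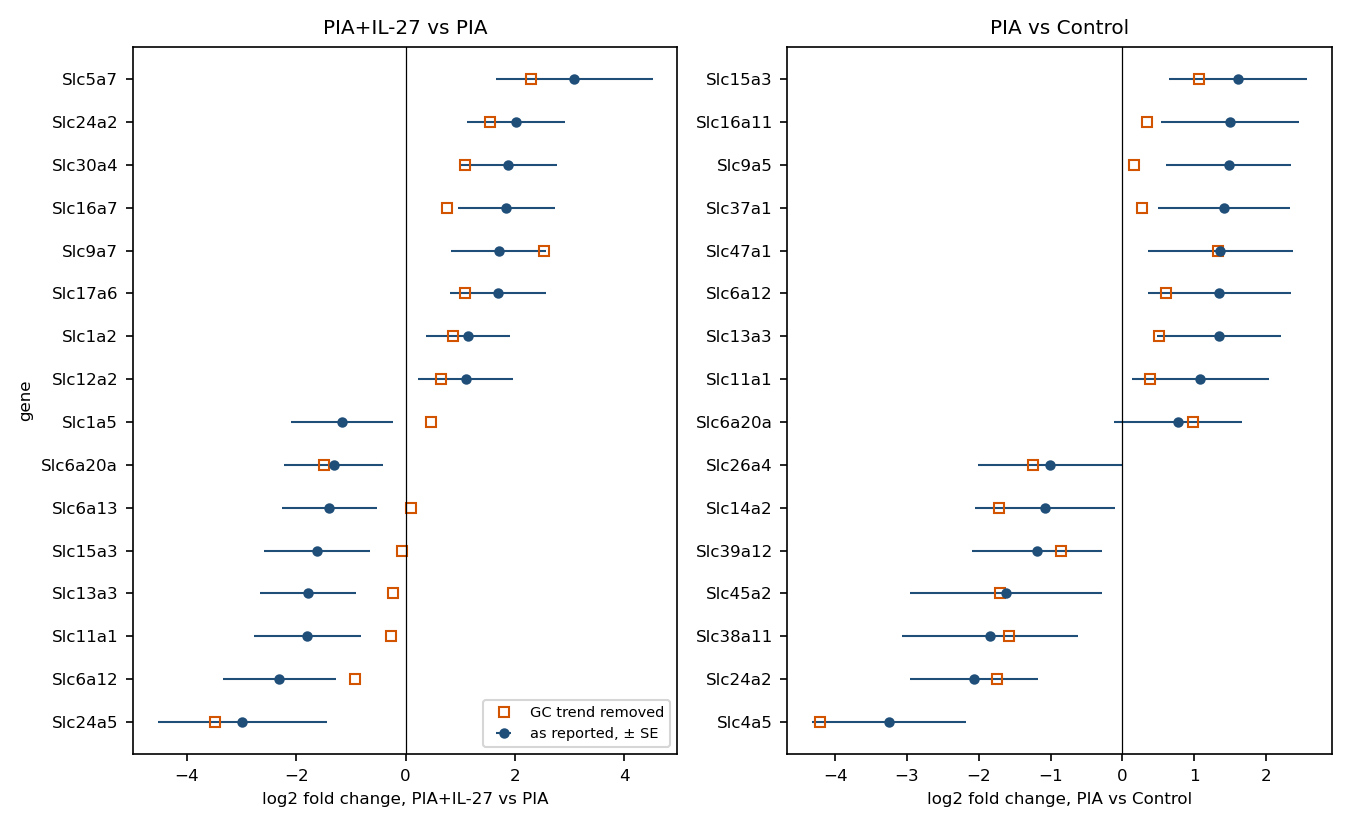
Log2 fold changes of named SLC genes in PIA+IL-27 against PIA (left) and PIA against Control (right), as blue points with bars of 1 SE, beside open squares for the value after removal of a GC trend. On the left, Slc15a3 goes to -0.06 and Slc6a13 to 0.11, while Slc24a2 keeps 1.54.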

How the data were processed

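Total RNA of mouse hippocampus was sequenced in 6 libraries, grouped by the treatment in the labels. Per the file headers, the authors deposited an expected count per gene and library (11.3 to 13.3% of values not whole), a normalized read count, which is a signal equal to the count rounded up and divided by a library factor of 0.917 to 1.05, and TPM over the whole library. The authors also deposited a log2 fold change and a Q value per comparison. For aligner, counter, build, strand and their test, the sources used here give nothing. Without strand, overlapping and antisense genes cannot be told apart.

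After rounding, expected counts went into the quasi-likelihood test of edgeR 4.0.16 under R 4.3.3, with all 6 libraries in 1 fit, the authors' factors, filterByExpr by group and Benjamini-Hochberg adjustment over 3216 genes. The common biological coefficient of variation was 0.597 and prior degrees of freedom were infinite, so no gene's own spread entered. The test was tested on simulated data. A standard error (SE) is the log2 fold change divided by the root of F. Alternatives were no filter, a replicate block, factors by TMM or by median of ratios, DESeq2 1.42.0, each library left out, and, chosen after the data were seen, leaving out PIA 2 with PIA+IL-27 1, and a loess trend on GC content (span 0.5, fitted on genes with a mean count of at least 10) removed per library. A count of 0 allows up to 3 counts, which covers counting error only. Table columns all matched a sample. Of the 69 SLC symbols, 69 matched RefSeq. GC content was found for 69.

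The genes named were those with non-overlapping groups and the smallest p per comparison, up to 6 in each direction, the 3 of highest TPM per transport class, and the listed genes of a fixed list (6 of 21) and an immune list (6 of 12). A few genes were added after their values were seen. Members and lists were chosen with earlier results of these data known. Promoter sequences are from RefSeq (GRCm38.p6). Of the SLC genes, 1 is counted but not reported here by name.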

Additional observations from a re-analysis of the deposited data

How the results depend on the processing

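No SLC gene was called in any comparison with other factors, no filter, the replicate block, DESeq2 or any library left out, whereas 1 was called in PIA+IL-27 against PIA (Slc9a7) and 1 in PIA against Control (Slc4a5) after removal of the GC trend. The Slc9a7 call uses the GC content of a transcript of 2512 bases, which may not be the one counted, and the Slc4a5 call rests on Control 2. Other settings were compared over 43 gene and comparison pairs, most of them chosen for groups that do not overlap. At such pairs, leaving out a library can hardly turn the direction, so the counts that follow were largely set by that choice and do not measure robustness. Over these 43 pairs and 13 settings, 547 of 559 values kept direction and side of the threshold, 10 turned direction and 2 passed the threshold. Those that turned were Slc12a2 in PIA+IL-27 against PIA (-0.11 with TMM, -0.0705 with median-of-ratios factors) and Slc1a2 (-0.0128 with TMM), Slc6a13 (0.11) and Slc1a5 (0.46, and 0.18 against Control) after removal of the GC trend, Slc4a5 without Control 2 (1.81 in PIA+IL-27 against Control, beside -4.79 without Control 1, and 2.35 in PIA against Control, beside -4.24), and Slc9a5 in PIA against Control (-0.25 without PIA 2, with or without PIA+IL-27 1, beside 2.24 without PIA 1). Beyond what the construction of each setting shows, the cause was not tested.

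The median log2 fold change in PIA+IL-27 against PIA was -0.41 with TMM, -0.34 with median-of-ratios factors, 0.69 with the replicate block, 0.63 without PIA 2 and PIA+IL-27 1, 0.64 without the GC trend, and 0.49 to 0.92 with each library left out in turn. In PIA against Control it was 0.19, 0.15, -0.25 without both libraries, -0.24 without the GC trend and -0.97 to 0.46 over the libraries left out, with 0.46 without Control 2. In PIA+IL-27 against Control it was -0.45, -0.40, -0.0045 without both libraries and -0.13 to 1.12, with -0.13 without Control 1. With a library left out, the lone library of its group is assumed to vary like the others. The replicate block called 0 SLC genes. The labels do not say whether replicate numbers are a pairing, and the main fit used none. Differences between replicates correlated across 3216 genes at 0.145 (PIA and Control), 0.061 (PIA+IL-27 and Control) and -0.261 (PIA+IL-27 and PIA). These values cannot exclude a shared litter or batch, since differences in tissue content between libraries also enter them. Read depth limits the 15 SLC genes under the filter, for which no test was made.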

Other observations

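Other membrane transport genes (pumps, ABC transporters, flippases, aquaporins and carbonic anhydrases) numbered 30 in the table, of which 27 were tested and 0 were called by edgeR in any comparison. At an unadjusted p under 0.05, there were 4 of the 27 in PIA+IL-27 against PIA (14.8%, against 18.7% of all tested genes), 2 in PIA against Control (7.41%, against 6.28%) and 2 in PIA+IL-27 against Control (7.41%, against 2.86%). The median log2 fold change of the tested genes among them was 1.26 in PIA+IL-27 against PIA, -0.98 in PIA against Control and 0.44 in PIA+IL-27 against Control. PIA+IL-27 lay wholly above PIA at 19 of the 30 (63.3%, against 57.1% of all listed genes) and wholly below it at 3 (against 16.5%). Atp2b1, a calcium pump of the plasma membrane, had 4923 and 6605 normalized read counts in PIA+IL-27, 1680 and 1042 in PIA, and 1666 and 6605 in Control, with Control 2 level with PIA+IL-27. Aqp1, the water channel of the choroid plexus, had 60.5 and 27.2 in PIA+IL-27, 238 and 148 in PIA, and 58.8 and 714 in Control.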
